A study of Mus musculus with 5 samples.

Results

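Open chromatin was described at 6 genes that encode transcription factors of helper and regulatory T cell lineages, Foxp3, Rora, Maf, Ikzf2, Ikzf4 and Zbtb16, in naïve CD8+ T cells with and without the transcription factors Tcf1 and Lef1. A DNase I-hypersensitive peak was counted for a gene when its summit, the base with the most fragments, lay in the gene body or within 50 kb of either end on the mm9 mouse genome. This rule took 31 of 31116 peaks from the wild-type (WT) list and 27 of 25525 from the double knockout (dKO) list, at 39 sites in all. All mice carried hCD2-Cre and the Rosa26 GFP reporter. WT mice had both genes intact (Lef1+/+ and Tcf7+/+, where Tcf7 encodes Tcf1), and in dKO mice both were floxed on each allele (Lef1 fl/fl and Tcf7 fl/fl). All were young adults of both sexes on the C57BL/6 background, and no treatment is given for them. In both genotypes the cells were splenic T cells sorted as GFP+ TCRβ+ CD62L-high CD44-low-to-medium CD8+. The Cre transgene is driven by human CD2 sequences and acts mostly in mature peripheral T cells, so the deletion falls mostly after the thymus, and the GFP reporter marks the cells in which Cre had been active.

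Conventional T cells become CD4+ helper or CD8+ cytotoxic cells in the thymus, and each fate keeps the regulators of the other fates silent. Foxp3 is the defining factor of regulatory T cells, and Ikzf2 (Helios) and Ikzf4 (Eos) are Ikaros family zinc finger factors that act with it in those cells. Rora is a nuclear receptor used by Th17 cells and type 2 innate lymphoid cells, Maf is a bZIP factor that drives cytokine genes such as Il4, Il10 and Il21 in helper cells, and Zbtb16 (PLZF) directs NKT and other innate-like T cells. DNase I cuts DNA that nucleosomes leave accessible, so a peak marks a promoter, enhancer, insulator or other open element, and it does not by itself say that the gene is transcribed. Tcf1 and Lef1 are HMG-box factors that bind the core ATCAAAG.

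The question was which open sites at these loci were found with and without Tcf1 and Lef1. DNase-seq was made from 3 WT and 2 dKO replicates, which the authors pooled by genotype before calling peaks, so the values of these lists have no spread between replicates and no test between genotypes was made from them. Counts per replicate were not used here. The WT pool held 83923734 fragments and the dKO pool 62242963, a ratio of 1.35. Because of that difference, peak strength was ranked within its own list, as the percentile of fold enrichment (fragments at the summit over the local background), or its pileup (fragments over the summit) was scaled to 1000000 fragments kept, called the depth-scaled pileup. Ratios of pileups carry an exact 95% interval that covers counting error only. Of 7 T and CD8 cell markers (Cd3e, Cd3d, Cd3g, Lck, Cd2, Cd8a and Cd8b1), 7 had a WT peak within 1 kb of a transcription start site (TSS) and 6 a dKO peak, the exception being Cd3d. Among 8 genes for other cells (Cd4, Cd79a, Ms4a1, Csf1r, Lyz2, Itgam, Ncr1 and Itgax), Itgam had a WT peak there, at percentile 40.3, and 0 had a dKO peak. In the gene body and 50 kb either side, these 8 genes held 26 WT and 15 dKO peaks. Of the WT peaks 42.3% overlapped no dKO peak, and 0 of the dKO peaks lacked a WT peak. Over all peaks these shares were 30.1% and 14.0%. Itgam had 5 WT peaks and Itgax 3, none of them overlapping a dKO peak, and Cd4 had 10 in WT and 9 in dKO. The part of other cells in these peaks was not tested. Regulatory and helper T cells carry Cd4, which the sort for CD8+ cells leaves out and which had no TSS peak in either list, and the part of such cells in the values was not tested.

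The sequences below come from a choice of sites found in 1 list only, several of them weak calls, and from a shared site. They are the reference bases of mm9, plus strand, 5′ to 3′, 100 bp either side of a summit and printed in lower case. The first pair shows the peaks with the Tcf/Lef core in this window, both in Rora and both absent from the dKO list, with the core (on the minus strand) in capitals.
Rora site 2 (chr9:68871237-68871437): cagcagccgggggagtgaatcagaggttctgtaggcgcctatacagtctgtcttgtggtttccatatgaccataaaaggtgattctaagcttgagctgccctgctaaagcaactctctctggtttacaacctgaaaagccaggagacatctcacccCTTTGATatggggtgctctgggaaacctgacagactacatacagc
Rora site 4 (chr9:68958613-68958813): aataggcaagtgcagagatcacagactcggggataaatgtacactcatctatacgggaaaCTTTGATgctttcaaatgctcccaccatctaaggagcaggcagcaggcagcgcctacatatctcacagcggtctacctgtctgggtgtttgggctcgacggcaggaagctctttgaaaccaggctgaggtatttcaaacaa
The next 3 were also found in the WT list only, and capitals mark the core of the motif of the insulator protein CTCF, read as CCAC, any base, AGG, any base and GG, which was searched for after these windows had been read.
Rora site 1 (chr9:68804826-68805026): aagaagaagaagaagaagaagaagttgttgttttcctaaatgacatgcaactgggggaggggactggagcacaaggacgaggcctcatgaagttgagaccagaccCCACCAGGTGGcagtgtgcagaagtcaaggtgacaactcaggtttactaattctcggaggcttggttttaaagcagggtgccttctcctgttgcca
Rora site 9 (chr9:69205732-69205932): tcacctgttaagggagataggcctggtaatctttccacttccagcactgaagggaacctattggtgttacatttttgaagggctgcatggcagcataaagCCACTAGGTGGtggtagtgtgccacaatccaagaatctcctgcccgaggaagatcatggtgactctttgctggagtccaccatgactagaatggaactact
Zbtb16 site 1 (chr9:48454418-48454618): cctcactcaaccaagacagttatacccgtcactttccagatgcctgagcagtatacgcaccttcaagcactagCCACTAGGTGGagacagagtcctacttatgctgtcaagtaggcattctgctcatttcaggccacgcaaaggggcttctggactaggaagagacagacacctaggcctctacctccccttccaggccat
The last 6 are sites of the dKO list, at Zbtb16, Maf and Foxp3, of which Zbtb16 site 3 was also a WT peak. None holds the Tcf/Lef or the CTCF core, and capitals mark the 11 bases centred on the summit.
Zbtb16 site 2 (chr9:48523298-48523498): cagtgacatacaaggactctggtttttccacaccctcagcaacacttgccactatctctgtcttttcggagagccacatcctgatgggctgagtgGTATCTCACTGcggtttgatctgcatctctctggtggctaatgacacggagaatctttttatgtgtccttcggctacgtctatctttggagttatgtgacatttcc
Zbtb16 site 3 (chr9:48548319-48548519): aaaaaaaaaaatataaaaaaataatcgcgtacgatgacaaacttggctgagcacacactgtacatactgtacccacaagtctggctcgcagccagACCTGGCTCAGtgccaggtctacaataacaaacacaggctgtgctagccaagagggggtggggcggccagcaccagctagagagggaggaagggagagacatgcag
Zbtb16 site 4 (chr9:48591592-48591792): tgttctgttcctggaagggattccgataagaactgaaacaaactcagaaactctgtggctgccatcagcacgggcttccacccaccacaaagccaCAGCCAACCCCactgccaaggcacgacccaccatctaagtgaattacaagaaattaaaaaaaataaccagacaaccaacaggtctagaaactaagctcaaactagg
Zbtb16 site 5 (chr9:48603359-48603559): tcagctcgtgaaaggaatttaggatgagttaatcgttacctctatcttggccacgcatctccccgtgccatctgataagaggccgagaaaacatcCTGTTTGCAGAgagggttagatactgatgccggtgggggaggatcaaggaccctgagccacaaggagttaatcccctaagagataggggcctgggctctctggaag
Maf site 2 (chr8:118233410-118233610): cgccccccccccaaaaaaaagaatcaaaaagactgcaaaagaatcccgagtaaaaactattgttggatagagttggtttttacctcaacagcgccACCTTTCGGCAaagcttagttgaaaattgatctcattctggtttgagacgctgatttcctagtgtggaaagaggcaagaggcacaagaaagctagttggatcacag
Foxp3 site 1 (chrX:7143539-7143739): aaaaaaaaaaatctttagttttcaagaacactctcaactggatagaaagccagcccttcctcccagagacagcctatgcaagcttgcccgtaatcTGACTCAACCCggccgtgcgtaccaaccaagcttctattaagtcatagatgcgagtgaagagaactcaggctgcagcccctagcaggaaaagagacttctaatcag

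Of the 39 sites, 19 were in both lists, 12 were WT-only (a WT peak that overlaps no dKO peak by 1 bp or more) and 8 were dKO-only. The WT-only sites were 38.7% of the 31 WT peaks (95% Wilson interval 23.7 to 56.2), and the interval took in the 30.1% of all WT peaks. Over 1 kb from any TSS, 10 of the 20 WT peaks of these genes were WT-only, beside 37.1% of all such WT peaks. The dKO-only sites were 29.6% of the 27 dKO peaks (15.9 to 48.5), beside 14.0% of all dKO peaks. Over 1 kb from any TSS, 8 of the 18 dKO peaks of these genes were dKO-only, beside 20.7% of all such dKO peaks. No interval was taken for the peaks over 1 kb from a TSS. The interval of the share of all 27 dKO peaks lay above 14.0%. With the study's criteria for an accessible site (a fold enrichment of at least 4 and a q under 0.05) it was 14.3 to 47.6 and took in the background of 14.4%. Of the WT peaks 20 of 31 were over 1 kb from a TSS, beside 59.2% of all, and of the dKO peaks 18 of 27, beside 57.3%. All 8 dKO-only and 10 of the 12 WT-only sites were among them. By the study's criteria 1 WT and 2 dKO peaks dropped out, beside 8.50% and 4.55% of all peaks.

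**Figure D1:**
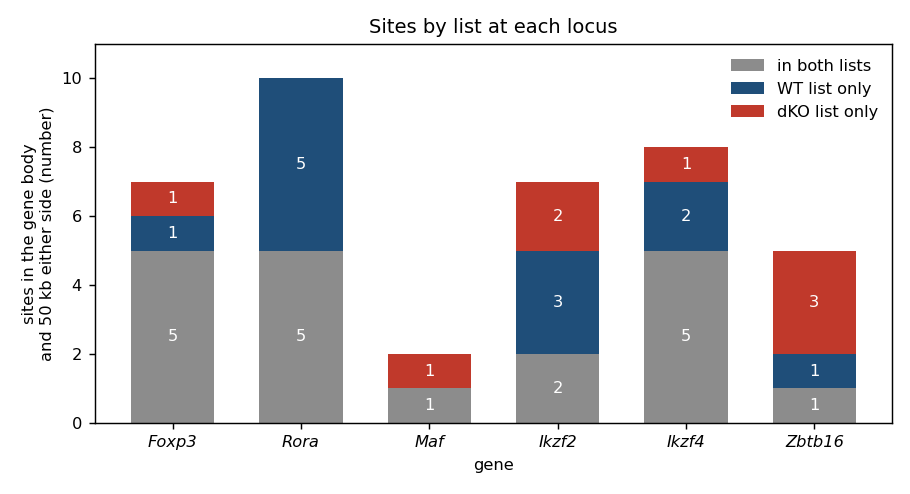
Number of sites (y axis) in the gene body and 50 kb either side of each of the 6 genes (x axis), stacked by list: grey for both lists, blue for WT only and red for dKO only. Rora had 5 WT-only and 0 dKO-only sites, Zbtb16 had 1 and 3.

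The 6 loci went different ways. Rora had 10 WT and 5 dKO peaks, Foxp3 had 6 and 6, Ikzf4 had 7 and 6, and Ikzf2 had 5 and 4. Zbtb16 had 2 WT and 4 dKO peaks, and Maf had 1 and 2, so these were the loci with more peaks in the dKO list. Over 22367 protein-coding genes with the same window, 10.8% had more dKO than WT peaks, 41.0% had more WT peaks and 48.2% as many of each. Genes without any peak are included and count among the 48.2%. A surplus of at least 5 WT peaks, as at Rora, was found at 1.70% of genes, and a surplus of at least 2 dKO peaks, as at Zbtb16, at 2.42%. The genes differ in length, from 15.15 kb for Ikzf4 and 15.57 kb for Foxp3 to 154.75 kb for Ikzf2, 181.64 kb for Zbtb16 and 734.46 kb for Rora, and the part of length in the counts was not tested.

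**Figure D2:**
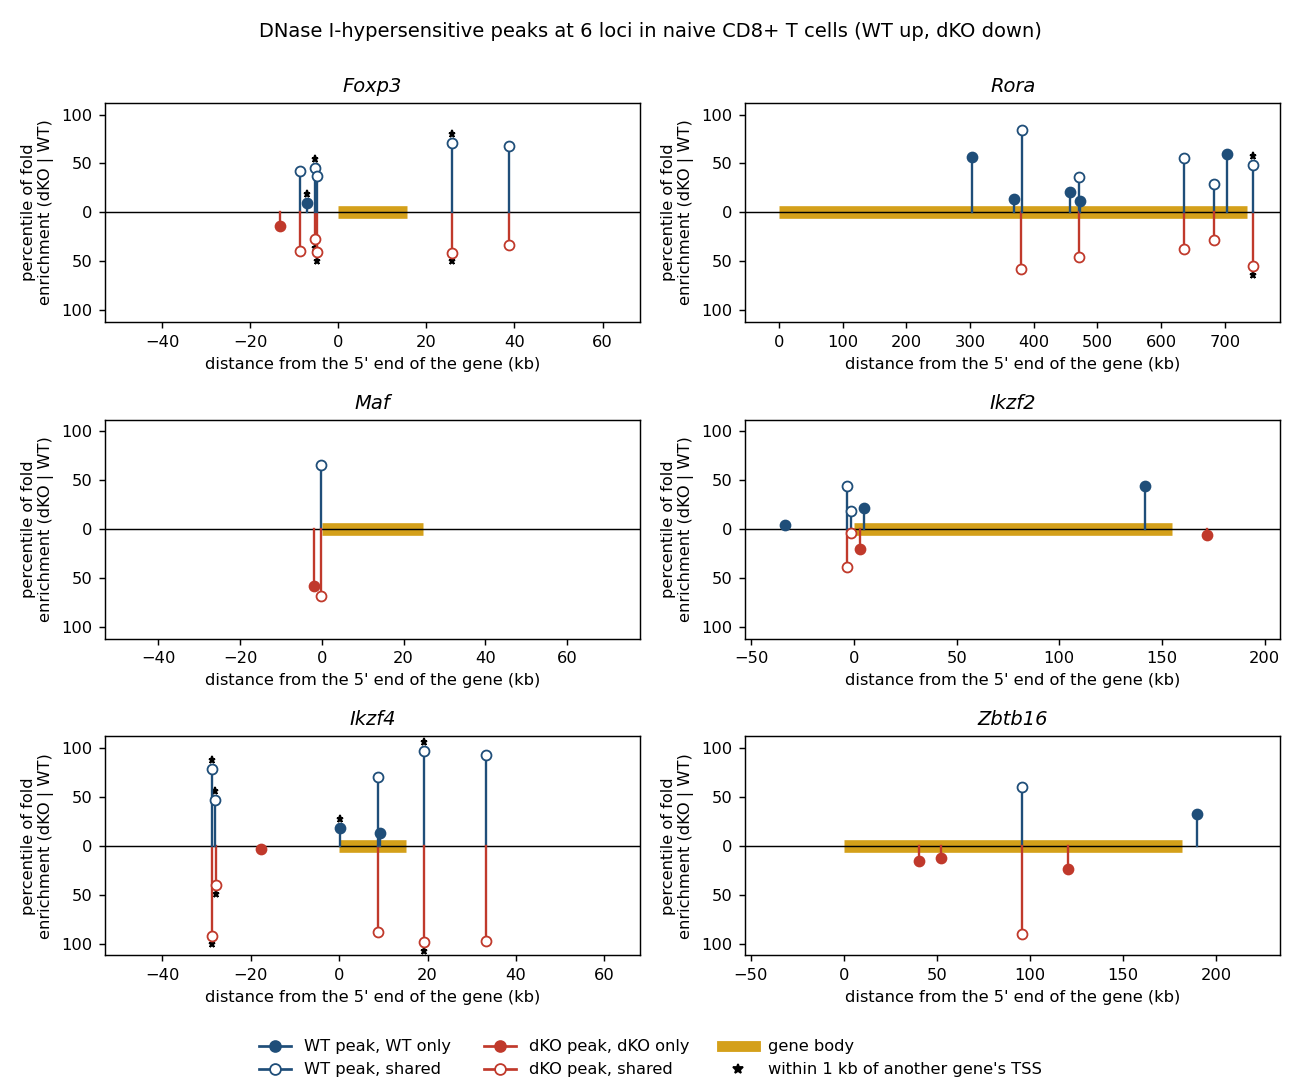
Position of every peak, as the distance from the 5′ end of its gene in kb (x axis), and its percentile of fold enrichment within its own list (y axis), with WT peaks upward in blue and dKO peaks downward in red. Filled points are found in 1 list only, open points in both, the bar is the gene body and stars mark peaks within 1 kb of another gene's TSS. The WT-only points of Rora lie in its body, as do the 3 dKO-only points of Zbtb16.

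Rora (chr9:68501593-69236053, plus strand) had the most sites in the WT list only, 5 of the 12. Its 10 WT peaks ranged from percentile 11.7 to 84.6 and its 5 dKO peaks from 28.7 to 58.3. All of the WT-only sites were intronic. Site 1, in intron 1 and 303.33 kb from the TSS, had a pileup of 46 fragments and stood at percentile 56.7 of the WT list. Site 9, in intron 3 at 704.24 kb, had 48 fragments and stood at percentile 59.6. These were strong sites for the WT-only class, since 13.7% and 11.5% of all WT-only peaks had a higher fold enrichment, and of all WT peaks between percentiles 50 and 60 only 23.5% were missing from the dKO list. At the depth of the dKO pool their WT pileups correspond to 34.1 and 35.6 fragments, while 13 would have passed the caller's p threshold there. A dKO count at that threshold would be 0.381 and 0.365 of the WT level. Counting error is not in these ratios, and the dKO background was taken as the scaled WT one. A further limit is that the caller also needs a run of bases about as long as a fragment.

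The other WT-only sites of Rora were weak. Sites 2, 4 and 6 lie in intron 1, with WT pileups of 23, 26 and 22 fragments at percentiles 13.9, 20.5 and 11.7. They correspond to 17.1, 19.3 and 16.3 fragments in the dKO pool, with the same call limit of 13, so an equal level there would have passed it by a few fragments only. In the WT list, 56.5% of all peaks between percentiles 10 and 20 were missing from the dKO list. Site 2 and site 4 are the peaks with the Tcf/Lef core within 100 bp of the summit, shown above. When both lists were reduced to their 20000 best peaks, Rora had 5 WT and 5 dKO peaks, so its surplus in number rested on calls beyond that rank. Sites 1 and 9 remained in the reduced WT list without a dKO peak. At the shared sites 5 and 8 the dKO peak remained and the WT peak did not.

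The shared sites of Rora included its strongest peak and its promoter for a short transcript. Site 3 in intron 1 was the widest peak at any of the 6 genes, 575 bp in WT and 611 bp in dKO. Its pileup was 118 fragments in WT (1.41 depth-scaled) and 65 in dKO (1.04 depth-scaled), a dKO/WT ratio of 0.743 (0.540 to 1.01), and it went from percentile 84.6 to 58.3. The rank difference, dKO minus WT, was -26.3 points by fold enrichment, -18.4 by -log10 p and -12.1 by pileup. The summits of that peak lay 342 bp apart, so the ratio compares different bases of the same open region. Site 7 lies within 1 kb of the TSS of the transcript Rora-002, in intron 2 of the full-length transcript. It had 56 fragments in WT and 32 in dKO, a ratio of 0.770, and its percentile was 55.3 in WT and 37.0 in dKO. The TSS of the full-length transcript had no peak in either list. Sites 5, 8 and 10, the last at the promoter of the neighbour Narg2, had ratios of 1.27, 1.12 and 1.18. Sites of this gene thus stood on both sides of an equal level, and every interval of the 5 shared sites took in the median ratio of all shared sites.

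Zbtb16 (chr9:48462416-48644050, minus strand) had the highest ratio among the shared sites. Site 3, in intron 3 and 95.63 kb from the TSS, had 48 fragments in WT (0.572 depth-scaled) and 60 in dKO (0.964 depth-scaled), so the shallower pool held the larger count. The dKO/WT ratio was 1.69 (1.13 to 2.52), and the percentile went from 59.6 to 90.2. The interval lay above 1. It also lay above 0.916, the median of all autosomal shared sites, as 7.94% of shared sites did relative to the median of their kind of chromosome. Ranked by pileup or by -log10 p instead, the rank difference was 30.5 and 30.1 points, beside 30.7 by fold enrichment.

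The dKO-only sites of Zbtb16 were weaker and lay in introns on either side of that site. Site 2 in intron 4 had 23 fragments at percentile 23.4, site 4 in intron 2 had 19 at percentile 12.4, and site 5 in intron 2 had 20 at percentile 15.3. Scaled to the deeper WT pool these correspond to 31.0, 25.6 and 27.0 fragments, where 16 would have passed the threshold. At an equal level the expected WT count would thus pass that threshold at each of the 3 sites. Counting error is not in this comparison, and the WT background was taken as the scaled dKO one. Site 4 was 98 bp wide, about the shortest width the caller accepts. The WT-only site of the gene, site 1, lies past its 3′ end, 189.53 kb from the TSS, with 32 fragments at percentile 32.7, and holds a CTCF core. No peak of either list lay within 1 kb of the Zbtb16 TSS, beside 45.8% of protein-coding genes with a WT peak there and 42.1% with a dKO peak. The 3 dKO-only peaks dropped out under stricter calls (q under 1e-10, a fold enrichment of at least 8, or the 20000 best peaks of each list), under which the dKO list kept 1 peak, at site 3, and the WT list 2, 1 and 1.

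Maf (chr8:118206842-118231694, minus strand) had its peaks at and before its promoter and 0 peaks in the gene body. Site 1, at 118 bp from the nearest Maf TSS in WT and 124 bp in dKO, had 74 fragments in WT (0.882 depth-scaled) and 72 in dKO (1.16 depth-scaled). The ratio was 1.31 (0.935 to 1.84), with an interval that took in 1 and lay above the autosomal median of 0.916. It ranked 2.18 percentile points higher in dKO by fold enrichment, 10.2 by -log10 p and 14.1 by pileup. Site 2, 1816 bp upstream of the nearest Maf TSS, was the strongest dKO-only site at any of the 6 genes, with 63 fragments at percentile 58.7. Among all 3563 dKO-only peaks 9.43% had a higher fold enrichment, and of all dKO peaks between percentiles 50 and 60 9.52% were missing from the WT list. At an equal level the WT pool would have held 84.9 fragments there and 23 would have passed the threshold, a count at 0.271 of the dKO level. The limits given for Rora sites 1 and 9, on counting error, background and width, hold here too. The limit on width bears on this site, since it was 99 bp wide and it dropped out when peaks under 120 bp were left out.

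Foxp3 (chrX:7156802-7172369, plus strand) had 0 peaks in its gene body and 0 within 1 kb of its TSS in either list, and no peak in the gene body of either list was the case at 62.9% of protein-coding genes. Its 7 sites lay between 13.16 kb upstream and 38.77 kb past the TSS, and 4 of the 6 WT and 3 of the 6 dKO peaks were within 1 kb of a TSS of Ppp1r3f, 4930524L23Rik or Ccdc22. These peaks cannot be told apart from elements of those neighbours. The only dKO-only site was site 1, inside Ppp1r3f and 13.16 kb upstream of Foxp3, with 22 fragments at percentile 13.4. An AP-1 sequence, TGANTCA, lies across its summit at chrX:7143634-7143640 (AP-1 joins Fos and Jun proteins downstream of T cell receptor signals). Its WT level at an equal share of fragments would be 29.7, with a call limit of 17. The only WT-only site, site 3 at a Ppp1r3f TSS, had 37 fragments at percentile 10.1, near the foot of its list.

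The sites downstream of Foxp3 ranked lower in the dKO list than in the WT list. Site 6 at the Ccdc22 promoter had 57 fragments in WT (0.679 depth-scaled) and 30 in dKO (0.482 depth-scaled), at percentiles 71.5 and 41.1. Site 7, inside Cacna1f and 38.77 kb past the Foxp3 TSS, had 57 in WT and 27 in dKO (0.434 depth-scaled), at percentiles 67.6 and 33.7. The ratios were 0.710 (0.440 to 1.12) and 0.639 (0.388 to 1.03), and both intervals took in 1 as well as 0.923, the median of shared sites on the X chromosome. The upstream sites 2, 4 and 5 had ratios of 1.03, 0.780 and 1.08. Of these, site 4 also ranked lower in dKO, at percentile 27.3 against 45.8 in WT. Sites 2 and 5 moved by -2.60 and 3.23 points. The paper reports raised Foxp3 transcripts and FOXP3 protein in dKO CD8+ T cells. Those are levels of RNA and protein, which these peaks do not measure. Mice of both sexes were used, and the pools differed in their share of Y chromosome fragments, with a median pileup at Y peaks of 0.894 in WT and 3.45 in dKO on the depth-scaled scale. At X peaks the medians were 0.560 and 0.578, and on the X chromosome 32.9% of WT peaks were WT-only and 21.6% of dKO peaks dKO-only. The part that the sex of the mice had in the Foxp3 values was not tested.

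Ikzf2 (chr1:69577788-69732534, minus strand) had 3 WT-only and 2 dKO-only sites, which lay at different places of the gene. Site 2 in intron 6, 141.52 kb from the TSS, was the strongest of the WT-only sites, with 41 fragments at percentile 44.2, against 30.4 expected and a limit of 14 in dKO. Site 3 in intron 3 had 43 fragments at percentile 21.1 and site 7, 33.84 kb upstream, had 18 at percentile 3.66. In dKO, site 4 lay over coding exon 3 with 51 fragments at a fold enrichment of 5.42, where WT would have held 68.8 and 29 would have passed. Site 1, past the 3′ end, had 21 fragments at percentile 6.55. Sites 3 and 4 lie 4.73 and 2.72 kb from the TSS, so within the start of the gene each list held a site that the other did not. The shared sites 5 and 6, at 1.27 and 3.25 kb upstream in WT, had ratios of 0.907 and 1.09, and neither list had a peak within 1 kb of the TSS.

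Ikzf4 (chr10:128067899-128083047, minus strand) held the strongest peaks of the 6 genes by fold enrichment, sites 1 and 2, and these hardly differed in rank between the pools. By pileup, Rora site 3 in WT stood above them, with 118 fragments. Site 2 at the promoter of Rps26, which encodes a ribosomal protein, had 111 fragments in WT and 83 in dKO, a ratio of 1.01 (0.749 to 1.35), at percentiles 96.8 and 98.2. Site 1, also past the 3′ end of Ikzf4, had 82 and 72 fragments, a ratio of 1.18, at percentile 92.5 in WT and higher in dKO. In the gene itself, site 4 in intron 5 had 72 and 58 fragments, a ratio of 1.09 (0.755 to 1.56), and went from percentile 70.7 to 87.7. The rank difference there was 4.03 points by pileup and 9.36 by -log10 p, and the local background was 5.85 fragments in WT and 3.28 in dKO. Sites 7 and 8 at the promoter of Suox had ratios of 0.843 and 1.13. Site 7 went from percentile 46.7 in WT to 40.1 in dKO, and site 8 from 78.5 to 91.8. The rank difference of site 8 was 6.45 points by pileup and 9.58 by -log10 p. Site 5 at the Ikzf4 TSS, in the UTR of exon 1 of Ikzf4-001 and also within 1 kb of the TSS of Gm17336, was WT-only and weak, with 25 fragments at percentile 18.3 against 18.5 expected and a limit of 13 in dKO. The other sites found in 1 list only were site 3 in intron 5 (WT, 29 fragments, percentile 12.7) and site 6 (dKO, 15 fragments, percentile 3.28).

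**Figure D3:**
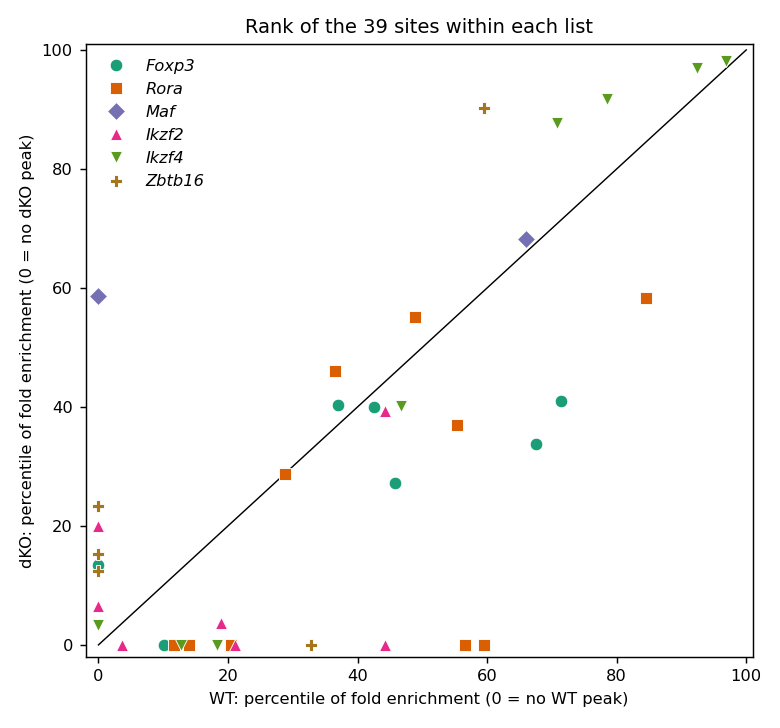
Percentile of fold enrichment of each of the 39 sites in the WT list (x axis) and in the dKO list (y axis), with 0 for a list without the peak, and the line of equal rank. Marker shape and colour give the gene. Zbtb16 site 3 stands above the line at 59.6 and 90.2, Maf site 2 on the left edge at 58.7, and Rora sites 1 and 9 on the lower edge at 56.7 and 59.6.

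The 19 shared sites lay on both sides of an equal level. The median dKO/WT ratio was 1.08, with a range from 0.639 to 1.69, beside a median of 0.917 over all 21739 shared sites, 0.975 over those more than 1 kb from a TSS and 0.872 over the rest. The ratio was above 1 at 12 of 19 sites, beside 36.6% of all shared sites. By rank, 9 sites stood higher in dKO and 10 higher in WT, beside 38.0% higher in dKO over all, and the median rank difference, dKO minus WT, was -0.05 points, beside -3.46. By -log10 p and by pileup the median was 0.574 and 1.41 points, so its sign depended on the measure. The interval of the ratio took in the median of its kind of chromosome at 17 of the 19 sites. The exceptions were Zbtb16 site 3 and Maf site 1, both above it, beside 7.94% of all shared sites above and 5.61% below.

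**Figure D4:**
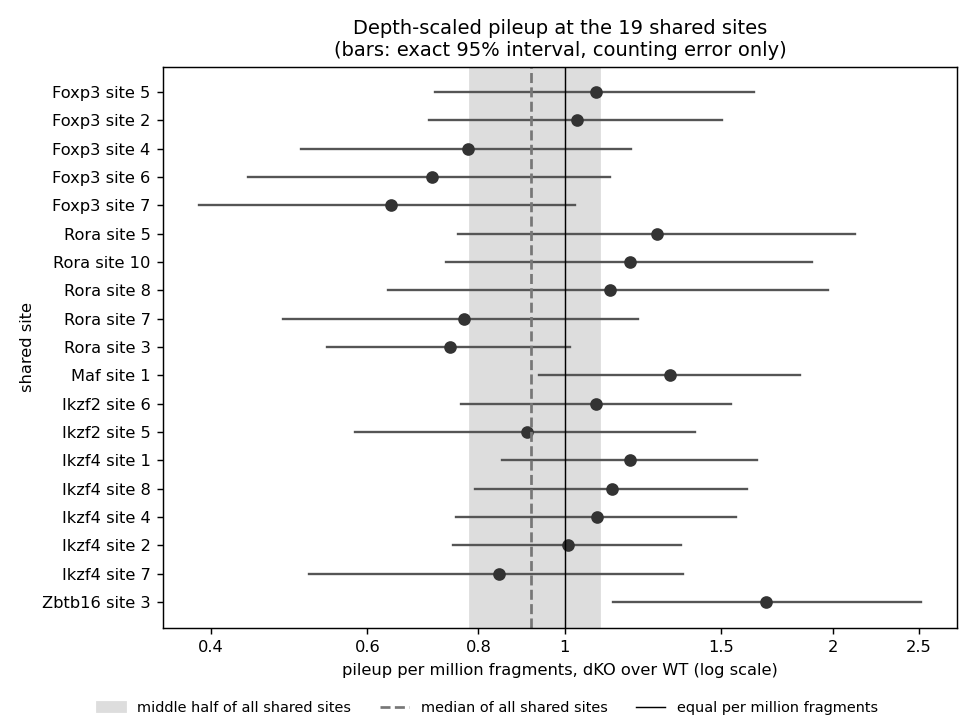
Ratio of depth-scaled pileup, dKO over WT, at the 19 shared sites (x axis, log scale) by site (y axis). Bars are exact 95% intervals for counting error, the dashed line is the median of all shared sites (0.917), the grey band their interquartile range (0.783 to 1.09) and the solid line an equal level. Zbtb16 site 3, at 1.69, is the only site whose bar lies wholly to the right of the solid line.

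Sequence motifs were counted on both strands within 100 bp of the summits. A peak is said to hold a motif that lies in this window, also where it falls outside the called peak. The Tcf/Lef core ATCAAAG was in the window of 2 of the 31 WT peaks, Rora sites 2 and 4, and of 0 of the 27 dKO peaks, beside 3.88% of all WT and 2.44% of all dKO peaks. Both of the peaks with it were WT-only, a class in which 6.83% of all peaks held it, against 2.61% of shared WT peaks. The cores lie at chr9:68871393-68871399 and chr9:68958673-68958679, on the minus strand. The core of site 2 lies inside its peak. That of site 4 lies outside, as its peak starts at chr9:68958687. In the window of site 2 a RUNX sequence, TGTGGTT, and an AP-1 sequence are present as well, at chr9:68871290-68871296 and chr9:68871252-68871258, and none of these overlap. The AP-1 sequence lies outside the peak of site 2, which starts at chr9:68871266. Site 4 held no other of the motifs searched. The remaining 10 WT-only sites, Rora sites 1 and 9 among them, hold no ATCAAAG in this window.

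The CTCF core was in 4 of the 31 WT peaks, beside 4.31% of all WT peaks, and in 1 of the 27 dKO peaks, beside 4.25% of all. Rora site 1 (chr9:68804931-68804941), Rora site 9 (chr9:69205832-69205842) and Zbtb16 site 1 (chr9:48454491-48454501) were 3 of the 12 WT-only sites, in a class where 4.65% of all WT peaks held it. Ikzf2 site 6, a shared site, was the other. As this motif was chosen after the sequences had been read, the count is a description of these windows. Of the remaining motifs, the ETS sequence AGGAAGT was in 6 WT and 4 dKO peaks (14.3% and 14.6% of all), RUNX in 5 and 4 (9.72% and 10.6%), AP-1 in 2 and 2 (6.22% and 6.40%) and GATA, as AGATAA, in 3 and 3 (6.20% and 6.81%). The AP-1 peaks were Foxp3 site 1, Rora site 2 and the shared Rora site 5.

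Other genes of the same lineages had more peaks in the full WT list than in the full dKO list, and this turned when both lists were reduced to their 20000 best peaks, which left 68 WT and 70 dKO peaks at the 15 genes. More WT than dKO peaks in the window were found at 41.0% of all protein-coding genes, genes without any peak included. Of 10 regulatory T cell genes (Il2ra, Ctla4, Nrp1, Tnfrsf18, Lrrc32, Izumo1r, Gpr83, Entpd1, Ikzf1 and Ikzf3), 8 had more WT peaks, Entpd1 had 11 in each list and Lrrc32 had 1 in WT and 2 in dKO. Together they held 96 WT and 77 dKO peaks, of which 32.3% were WT-only and 15.6% dKO-only. Among these, Ctla4, an inhibitory receptor, had 11 WT and 7 dKO peaks, and its best TSS peak stood at percentile 76.9 in WT and 57.9 in dKO. Of its peaks, 6 were WT-only and 2 dKO-only. The paper, which tested sites over replicates, reports a site in a Ctla4 intron that was more accessible in dKO cells. The Ikaros family members Ikzf1 and Ikzf3 had 17 and 15 peaks in WT and 15 and 11 in dKO. All 5 helper lineage genes (Gata3, Tbx21, Bcl6, Ahr and Zbtb7b) had more WT peaks, 24 against 16 together, with 9 of the 24 WT peaks WT-only (37.5%) and 1 of the 16 dKO peaks, at Ahr, dKO-only. The backgrounds are the 30.1% and 14.0% given above, and the shares of the regulatory T cell genes lay near them, while the helper genes had too few peaks to set their shares apart.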

How the data were processed

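DNase-seq of 3 WT and 2 dKO replicates was analysed from the authors' 2 peak lists. Per the methods and file headers, the authors aligned reads to mm9 with Bowtie2 2.2.5, kept uniquely mapped reads, pooled the replicates of each genotype and called peaks with MACS2 2.1.1 in paired-end mode, without a control and at p 1e-05. The headers give 167847468 fragments read for WT and 124485926 for dKO, exactly 2 times the numbers kept after removal of duplicates. The deposited pileup is a signal, the number of fragments over the summit, not scaled to depth. As deposited, fold enrichment is a ratio, pileup + 1 over local background + 1 in that pool. The deposited −log10 p (and q, although the headers say it was not calculated) are the caller's test of the summit against that background.

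Genes came from the gencode annotation of the same assembly (NCBIM37), where Izumo1r is named Folr4, and the body runs over all transcripts of a gene. Distances were taken between summit and TSS, using transcript 001 of a gene (if none had that name, its longest one), unless the nearest TSS is named. Peaks were shared when they overlapped by 1 bp or more. The number of fragments that would have passed in the other pool was computed from a Poisson test at p 1e-05 with this peak's local background scaled to that pool. This test gave the deposited −log10 p back within 0.000287 in WT and 0.000248 in dKO, for values under 100. Sequences were read with pysam 0.24.0. No window of 201 bp had a near-identical copy elsewhere (blastn 2.17.0, at least 90% identity over at least 80% of its length). Named sites were those at a TSS of the gene, the 2 strongest per list in the body, the 3 strongest found in 1 list only per gene, the shared sites with the largest rank differences, and all with the Tcf/Lef core. The overlap, gap, motif and percentile steps were tested on simulated data. The genes, lists and tests were chosen with earlier results of these data known, and 2 genes of these lists are not reported here. The alternatives were stricter calls, other windows (for gene bodies, backgrounds were peaks in bodies of protein-coding genes), other rules of overlap, other ranks and scalings, a motif window of 50 bp and, added after the data were seen, a width of at least 120 bp. Python 3.11.15, numpy 2.4.6, pandas 2.3.3, scipy 1.17.1 and matplotlib 3.10.9 were used.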

Additional observations from a re-analysis of the deposited data

How the results depend on the processing

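No paired analysis was possible because the replicates were pooled before calling and the lists carry no replicate columns, and for the same reason no replicate could be left out. With a fold enrichment of at least 8, 12 WT and 9 dKO peaks remained at the 6 genes in place of 31 and 27. With q under 1e-10 the dKO-only share was 10% (2 of 20 peaks), beside 2286 of 20851 such dKO peaks in all. With both lists reduced to their 20000 peaks of best −log10 p, 19 WT peaks remained, the WT-only share was 15.8% (3 of 19, beside 19.7% of all), 0 of the 6 genes had more WT than dKO peaks, in place of 3, and Rora had 5 of each. The 15 other lineage genes then had a WT-only share of 23.5% (16 of 68) and a dKO-only share of 25.7% (18 of 70), in place of 33.3% and 14.0%. Over all peaks of the lists the shares moved the same way, to 19.7% and 18.9% in place of 30.1% and 14.0%. This setting changes both the lengths of the lists and the threshold, and the cause was not tested. With gene bodies alone, 15 WT and 10 dKO peaks remained and the WT-only share was 60% (9 of 15, interval 35.7 to 80.2), beside 34.5% of all WT peaks in protein-coding gene bodies and 39.9% of those over 1 kb from a TSS. The dKO-only share was then 40% (4 of 10, interval 16.8 to 68.7), beside 14.8% and 20.4%. Both shares of the 6 genes include peaks within 1 kb of a TSS, which the backgrounds of 39.9% and 20.4% leave out. The median log2 ratio at the shared sites was 0.12, and 0.24 or 0.23 after division by the median of all shared sites or of those on the same kind of chromosome. Within 50 bp of the summit, 1 peak held the Tcf/Lef core in place of 2. It was Rora site 4, whose core lies outside the called peak. The median rank difference at the shared sites changed sign with the measure, from -0.05 to 0.574 by −log10 p and 1.41 by pileup. With q under 1e-10, Zbtb16 had 2 WT peaks and 1 dKO peak in place of 2 and 4, and with the 20000 best peaks the 6 genes had 19 WT and 20 dKO peaks in place of 31 and 27. With a fold enrichment of at least 8 the dKO-only share was 22.2%, with an interval of 6.32 to 54.7 that took in its background of 14.6%. Depth limits the weaker sites found in 1 list only, such as Ikzf2 site 7, where at an equal level the dKO pool would have held 13.3 fragments and a call needed 13.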
